A study of Mus musculus with 79 samples.

Results

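Glucocorticoid-responsive genes were followed in mouse muscle through the day in 2 muscle-specific knockouts (MKO). The group holds 10 genes chosen by name: the receptor gene Nr3c1 and the responsive genes Fkbp5, Tsc22d3, Klf9, Ddit4, Sgk1, Zbtb16, Cebpd, Mt1 and Mt2. All 10 are among the 14253 genes of the RORA tables, and 9 are among the 12952 genes of the PER2 tables, where Cebpd is not listed. The study holds 79 RNA-seq libraries of muscle taken at 0, 4, 8, 12, 16 and 20 h of zeitgeber time (ZT, counted from lights on), with 3 or 4 mice per genotype and time. The 4 kinds of mice are PER2 MKO (24 libraries), PER2 CTRL (19), RORA MKO (18) and RORA CTRL (18), and each knockout has its own controls, whose genotype is labelled WT. The labels give no other allele, Cre driver, named muscle, age or sex. PER2 represses the core of the circadian clock, and RORA is a nuclear receptor that activates clock genes.

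Glucocorticoids are adrenal steroid hormones whose blood level cycles daily. They enter cells and bind the glucocorticoid receptor, a transcription factor that HSP90 and its co-chaperones hold in the cytoplasm. The bound receptor moves to the nucleus and acts at palindromic DNA elements, and in skeletal muscle it turns on genes that slow protein synthesis, speed protein breakdown and shift fuel use.

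The values come from 12 of the authors' deposited tables, each of which compares MKO mice with their controls at 1 time. Sequencing depth is unknown, and values per mouse were not analysed here. The RORA fold changes are knockout over control. For PER2 the sources used here leave unsaid which genotype is the numerator, so PER2 values are given with their deposited sign, and no difference between the knockouts was tested. A gene was called where its adjusted p was under 0.05. The mean log2 fold change (log2FC) over the 6 ZT is the inverse-variance weighted mean ± its standard error (SE), and its test is a normal p (RORA) or Stouffer's sum (PER2), adjusted by Benjamini-Hochberg over all genes. Rora itself fell by 1.78 in the RORA set and was called at all 6 ZT in the authors' deposited tables, while Per2 had a weighted mean of 0.37 in the PER2 set. Per2 was called at 1 of 6 ZT and ran from -0.16 to 0.70 in the authors' deposited tables, so it does not settle the direction of that set. The skeletal muscle markers were the most abundant of the cell type lists, led by Myh4, the gene of the fast IIb myosin heavy chain. Its mean normalized count was 793000 in the authors' deposited RORA tables, and its deposited mean corresponds to 68700 CPM in PER2. In bulk tissue, fewer cells of a type and less RNA per cell cannot be told apart.

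RefSeq promoter sequences on GRCm38.p6, a build that the submitters' notes do not name, were matched by symbol for 7 of the 10 genes: Sgk1 (6 start sites), Tsc22d3 (3), Fkbp5, Klf9, Ddit4, Mt1 and Mt2. The 250 bases before each of these 14 start sites were searched on both strands, and 4 windows that hold the letters of known hormone, clock or metal elements are shown 5′ to 3′ on the gene's strand, with the matches in capitals. In Sgk1, which encodes a kinase induced by glucocorticoids, the window chr10:21993640-21993889 (plus strand) lies inside the annotated gene and overlaps no GENCODE exon. Its capitals mark the E-box CACGTG at -246 to -241 from the start site, where -1 is the last base before it, and the full palindrome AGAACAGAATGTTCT of the glucocorticoid response element at -189 to -175.
Sgk1: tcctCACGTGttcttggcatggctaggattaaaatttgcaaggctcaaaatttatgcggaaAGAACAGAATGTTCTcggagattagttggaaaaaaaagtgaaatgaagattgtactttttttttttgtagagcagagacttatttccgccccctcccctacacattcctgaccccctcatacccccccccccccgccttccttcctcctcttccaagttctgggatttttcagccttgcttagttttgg
In Fkbp5, the member with the largest mean change in both sets, the window chr17:28486150-28486399 (minus strand) also lies inside the annotated gene. It overlaps no GENCODE exon, and its capitals mark an E-box at -169 to -164.
Fkbp5: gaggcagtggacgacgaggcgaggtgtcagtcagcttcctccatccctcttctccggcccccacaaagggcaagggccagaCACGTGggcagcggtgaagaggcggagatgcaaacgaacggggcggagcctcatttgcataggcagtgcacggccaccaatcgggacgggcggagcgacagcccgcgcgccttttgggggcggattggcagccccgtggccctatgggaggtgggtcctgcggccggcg
The neighbouring metallothionein genes lie on the plus strand with start sites 6471 bases apart. The Mt1 window chr8:94178839-94179088 ends 7 bases inside the first GENCODE exon of Mt1, and its capitals mark GGACATGATGTTC, which fits a looser form of the palindrome, at -94 to -82, and the metal element core TGCACAC at -23 to -17.
Mt1: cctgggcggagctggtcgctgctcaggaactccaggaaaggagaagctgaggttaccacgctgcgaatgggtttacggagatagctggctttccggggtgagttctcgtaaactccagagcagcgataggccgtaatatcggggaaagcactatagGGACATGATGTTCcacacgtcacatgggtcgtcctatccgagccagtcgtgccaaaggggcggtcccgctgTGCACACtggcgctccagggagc
The Mt2 window chr8:94172368-94172617 lies in an exon of the antisense gene Gm45774 on the opposite strand, and its capitals mark 3 metal element cores.
Mt2: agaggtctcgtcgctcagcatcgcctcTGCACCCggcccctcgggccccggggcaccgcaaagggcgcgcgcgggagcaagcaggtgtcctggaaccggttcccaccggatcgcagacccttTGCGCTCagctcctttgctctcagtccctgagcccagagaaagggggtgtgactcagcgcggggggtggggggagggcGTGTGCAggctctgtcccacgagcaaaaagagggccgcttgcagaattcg
These matches describe letters only. The full palindrome, searched as AGAACA and TGTTCT with any 3 bases between, was present in 3 of 32851 RefSeq windows of this length (0.00913%), and the looser form, which lies inside every full palindrome and leaves free its outermost pair and 1 further base on each side, in 0.387%. The metal element core was present in 10.4% (TGCACNC) and 12.5% (TGCGCNC) of windows, the E-box CACGTG in 6.02%, the ROR half-site AGGTCA in 14.0% and the D-box TTATGTAA in 0.819%. AGGTCA was found before 2 of the other Sgk1 start sites, TGCGCCC before Ddit4, and none of the 7 motifs before Klf9 or Tsc22d3.

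The deposited mean levels pool genotypes and are the same in the 6 tables of a set, so they give the order of the genes but no daily course and no spread between mice. Per kilobase of the longest transcript, the mean normalized count in the authors' deposited RORA tables was highest for Tsc22d3, at 701, followed by Sgk1 at 600 and Klf9 at 435. Nr3c1 stood at 209, Fkbp5 at 145 and Zbtb16 at 138. Mt2 at 38.7, Ddit4 at 37.0 and Mt1 at 37.0 were close together, and Cebpd was lowest at 8.85. The CPM per kilobase from the authors' deposited PER2 tables gave nearly the same order, from 60.7 for Tsc22d3 and 45.8 for Sgk1 to 2.80 for Mt1, with Zbtb16 (13.1) above Fkbp5 (11.8). Whether neighbours in the order differ was not tested.

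In the RORA knockout, Nr3c1, Fkbp5 and Mt1 rose and Klf9 fell on the mean over the day. These 4 of 10 genes (40%) stand against 38.2% of all genes called, so the share called is near the background. The median weighted mean log2FC of the 10 genes was 0.007, beside 0.003 for all genes. At single times, 16 of the 60 gene-by-time values were called in the authors' deposited tables, against 26.6% of all values. Of the 10 genes, 5 were called at ZT20 (32.2% of all genes), 4 at ZT4 (29.0%), 4 at ZT0 (28.1%), 2 at ZT8 (27.8%), 1 at ZT16 (20.7%) and 0 at ZT12 (22.1%). At ZT12, by the authors' own test, 1 of the 10 genes (Nr3c1) had an unadjusted p under 0.05.

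Nr3c1 encodes the glucocorticoid receptor. Its log2FC from ZT0 to ZT20 was 0.20, 0.21, 0.11, 0.08, 0.08 and 0.12 in the authors' deposited RORA tables. It was positive at all 6 times and called at 4 of them, all but ZT12 and ZT16. The weighted mean rose by 0.13 ± 0.016, a fold of 1.10 (adjusted p = 1.31e-15). The effect did not pass the test for change with ZT (Cochran's Q, adjusted p = 0.298). All 8 endothelial markers were also called positive on the RORA mean, with a median of 0.146, beside 18.9% of all genes called positive. The part of endothelial cells in the Nr3c1 values was not tested. Nr3c1 ran from -0.21 at ZT0 to 0.25 at ZT12 in the authors' deposited PER2 tables, and its mean of 0.08 did not pass (adjusted p = 0.255). Without ZT0, its most negative time, the PER2 mean was 0.14 and passed (adjusted p = 0.0492), but it was 0.03 with the trend on transcript length and GC content removed (0.777) and 0.01 without ZT4 and ZT12 (0.966).

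Fkbp5 encodes a co-chaperone of HSP90 that lowers the receptor's affinity for hormone and is itself induced by the receptor. The authors' deposited RORA tables give it a log2FC of 0.62, 0.21, 0.12, 0.13, 0.83 and 0.49 from ZT0 to ZT20. The values were large from ZT16 through ZT0 and small from ZT4 to ZT12, and the gene was called at all times but ZT8 and ZT12. At ZT16 only 1.76% of all genes had a log2FC as large in size. The weighted mean rose by 0.36 ± 0.051, a fold of 1.29 (adjusted p = 1.06e-11). Fkbp5 was the only member to pass the test for a RORA effect that differed between times (Cochran's Q, adjusted p = 0.00178), beside 11.0% of all genes. Without ZT16 that call was lost (adjusted p = 0.0844), while the mean stayed called. At ZT16 the marker lists of the 7 cell types had median log2FC from -0.051 (skeletal muscle) to 0.028 (endothelium) in the authors' deposited tables. At ZT0 and ZT20, where Fkbp5 was positive both times, the adipocyte medians were -0.501 and 0.406 and the Schwann medians -0.265 and 0.742. The endothelial medians were positive both times, at 0.126 (4 of 8 genes called positive) and 0.226 (6 of 8). Of all genes 28.1% and 32.2% were called at these times in either direction. Medians at the same times were 0.029 and 0.272 for red blood cells and 0.019 and 0.159 for macrophages and leukocytes. They were 0.006 and 0.074 for fibroblasts and 0.035 and -0.046 for skeletal muscle. The part of other cell types in the Fkbp5 values was not tested.

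Fkbp5 was also positive at all 6 times in the authors' deposited PER2 tables, at 0.45, 0.32, 0.59, 0.23, 0.53 and 0.21 from ZT0 to ZT20. None of these was called by the authors' test, which called few genes at most times: 12.2% of all genes at ZT4, 3.34% at ZT12, 2.7% at ZT0, 1.78% at ZT8, 1.52% at ZT20 and 0.811% at ZT16. Before adjustment 1 of the 6 had a p under 0.05 (ZT8, 0.0469). The weighted mean was 0.39 ± 0.12, a fold of 1.31, and passed (Stouffer's sum, adjusted p = 0.00923). It was the only 1 of 9 members called on the PER2 mean (11.1%), where 21.6% of all genes were called. In the PER2 set 18.6% of all genes had a single sign at all 6 times, and in the RORA set 34.6%. The Fkbp5 call on the PER2 mean was kept under every alternative run, including without ZT4 and ZT12. In each set the weighted mean of Fkbp5 was the largest in size among the members, whichever way the PER2 ratio runs.

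**Figure D1:**
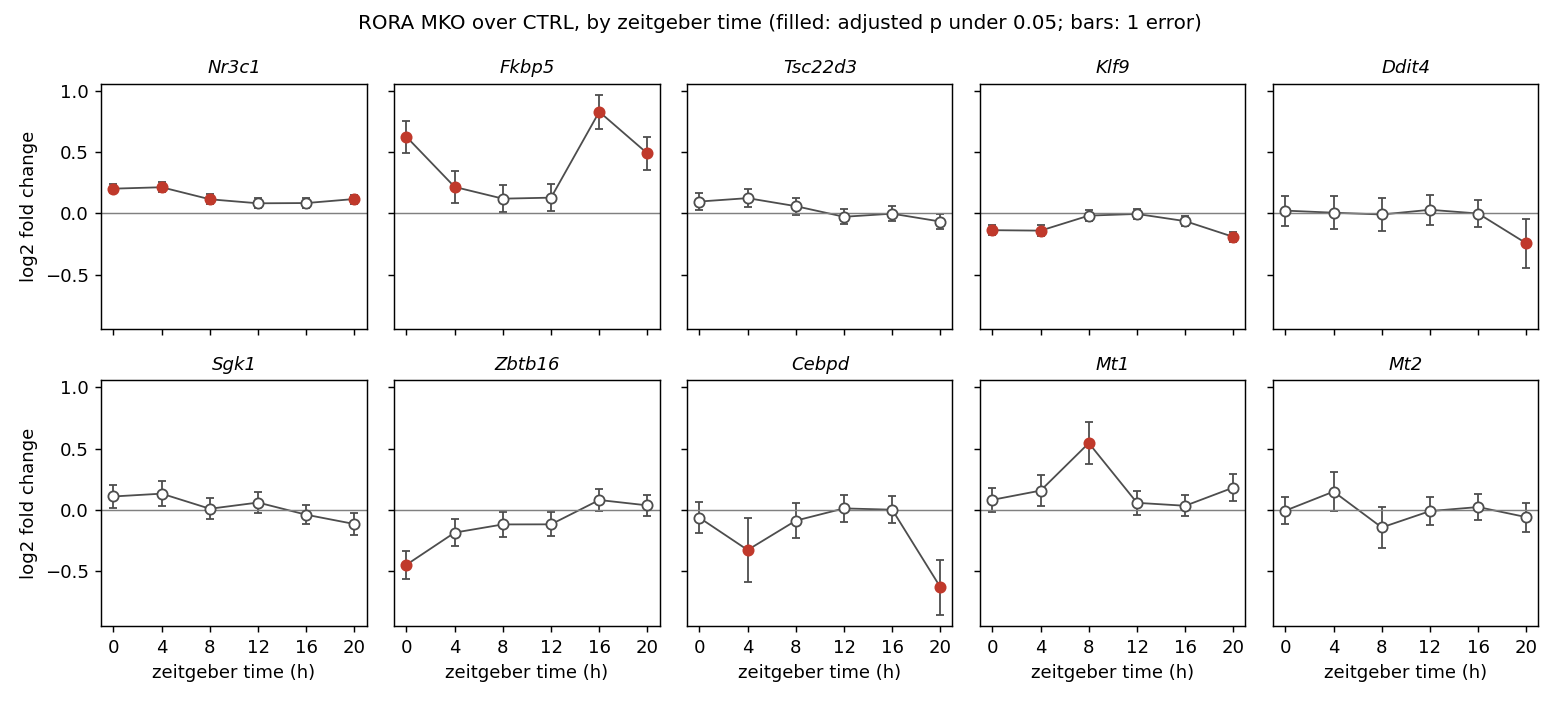
Deposited log2 fold change (RORA MKO over CTRL, vertical axis) of the 10 genes against zeitgeber time in hours, with the deposited error as bars and filled points for an adjusted p under 0.05. Fkbp5 peaks at 0.83 at ZT16, Nr3c1 is above 0 and Klf9 below 0 at every time, and Mt1 has a single high point of 0.55 at ZT8.

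Klf9 encodes a Krüppel-like transcription factor that is a direct target of the receptor. From ZT0 to ZT20 its log2FC in the authors' deposited RORA tables was -0.14, -0.14, -0.02, -0.01, -0.06 and -0.19. All 6 values were negative, with calls at ZT0, ZT4 and ZT20. The weighted mean fell by 0.09 ± 0.017 (adjusted p = 4.47e-07), the opposite direction to Fkbp5 and Nr3c1. With the spread between times as the error (limma on the 6 values) its adjusted p was 0.0506. Its test for change with ZT gave an adjusted p of 0.0542, which ran from 0.0201 (on z values) to 0.29 (without ZT20) over the alternatives and passed without ZT16 (0.039).

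Klf9 was the only member called at a single time in the authors' deposited PER2 tables, at ZT4, with a log2FC of 0.39 (adjusted p = 0.0238). That is 1 of 9 members, where 12.2% of all genes were called at that time. The other PER2 values of Klf9 lay between -0.09 and 0.16 in the authors' deposited tables, and the mean of 0.10 did not pass (adjusted p = 0.131). At ZT4 the PER2 fold changes correlated across genes with transcript length (Spearman's rho 0.52 over 11739 genes, which are not independent replicates), and the red blood cell list had a median of -1.352 with 5 of 5 genes called negative. With the trend on transcript length and GC content removed, Klf9 at ZT4 was 0.32 and was not called (adjusted p = 0.113). The part of the red blood cell RNA in this value was not tested. The PER2 mean of Klf9 passed without ZT0 (adjusted p = 0.0478) but was 0.05 without ZT4 (0.663) and 0.02 without ZT4 and ZT12 (0.871).

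Tsc22d3 encodes GILZ, an anti-inflammatory mediator of glucocorticoid action. Its RORA log2FC in the authors' deposited tables was 0.10, 0.12, 0.06, -0.03, -0.0033 and -0.07 from ZT0 to ZT20, with no call. The first 3 values were above 0 and the other 3 below it. The RORA weighted mean was 0.02, with a 95% interval from -0.03 to 0.07 (adjusted p = 0.596). Tsc22d3 ran from -0.31 at ZT0 to 0.18 at ZT8 in the authors' deposited PER2 tables, and its mean was -0.08 (adjusted p = 0.444). With the highest level per length of the group, it has one of the narrower intervals.

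Sgk1, which carries the full palindrome shown above, encodes a kinase that acts on ion transport and cell survival. The RORA log2FC was 0.11, 0.13, 0.01, 0.06, -0.04 and -0.11 from ZT0 to ZT20 in the authors' deposited tables, with no call. The RORA weighted mean was 0.02, with an interval from -0.05 to 0.09 (adjusted p = 0.765). Sgk1 in the authors' deposited PER2 tables was 0.06, -0.30, 0.03, -0.25, -0.14 and -0.25 over the same times. The PER2 mean of -0.14 just missed the threshold (adjusted p = 0.054), and it passed without ZT0 (0.0198) or without ZT8 (0.0271), the times at which Sgk1 was positive. Without ZT4 and ZT12 it was -0.08 (0.563). The difference in size from Fkbp5 was not tested.

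**Figure D2:**
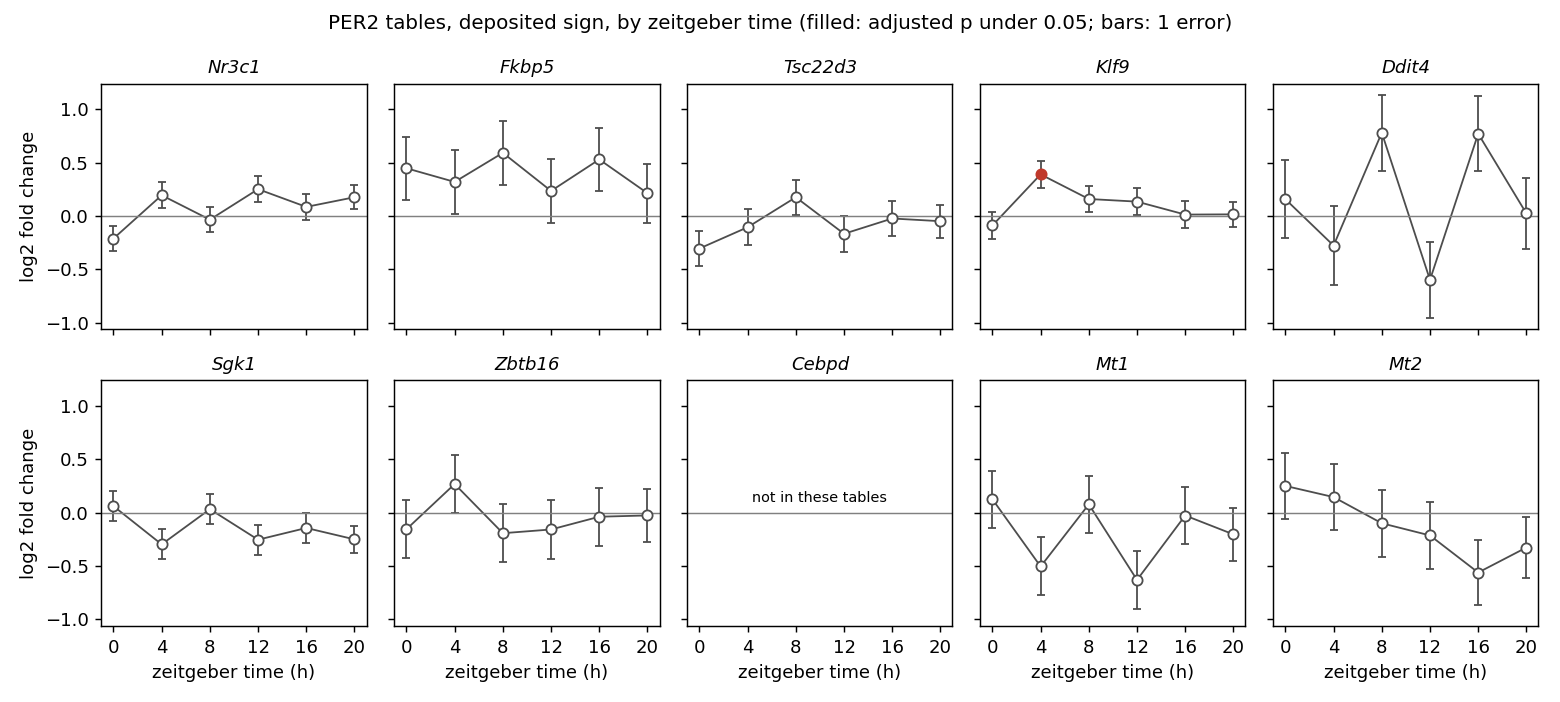
Deposited log2 fold change of the 9 genes in the PER2 tables (vertical axis, sign as deposited, genotype order not stated) against zeitgeber time in hours, with the derived error as bars and filled points for an adjusted p under 0.05. Fkbp5 is above 0 at all 6 times without a call at any, the single filled point is Klf9 at ZT4 (0.39), and Ddit4 swings between -0.60 and 0.78.

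Ddit4 encodes REDD1, an inhibitor of the growth kinase complex mTORC1. Its log2FC in the authors' deposited RORA tables lay between -0.0098 and 0.03 at 5 times and was -0.25 at ZT20, the only call (adjusted p = 0.0493). The RORA weighted mean was -0.01, with an interval from -0.11 to 0.10 (adjusted p = 0.945). Ddit4 had the widest range of the members in the authors' deposited PER2 tables, at 0.16, -0.28, 0.78, -0.60, 0.77 and 0.02 from ZT0 to ZT20, with no call. With the length and GC trend removed the low values were -0.0091 (ZT4) and -0.39 (ZT12), while the high ones stayed at 0.76 and 0.76. The PER2 mean was 0.15 ± 0.15 (adjusted p = 0.522). None of the 9 members passed the PER2 test for change with ZT (Cochran's Q on z values), and 0 passed with the derived error; Ddit4 alone had an unadjusted p under 0.05 (0.0337). Over all genes 4 passed that test (0.0309%).

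Zbtb16, which encodes the zinc finger repressor PLZF, was called lower in the RORA knockout at ZT0 and at no other single time. The authors' deposited RORA tables give a log2FC of -0.45, -0.18, -0.12, -0.12, 0.08 and 0.04 from ZT0 to ZT20, and only the first was called. The values were negative from ZT0 to ZT12 and positive at the other two times. The mean of -0.09 missed the threshold (adjusted p = 0.0634), but it passed without ZT16 (0.00958), without ZT20 (0.0173), by Stouffer's sum (0.00104) and when genes under a mean normalized count of 50 were dropped (0.0459). Without ZT0 it shrank to -0.04 (adjusted p = 0.552), so the size of the mean rests largely on that time. The test for change with ZT also lay at the threshold (adjusted p = 0.051), and ran from 0.00175 (on z values) to 0.646 (without ZT0) over the alternatives, passing without ZT8 (0.0354) and ZT12 (0.0293) but not without ZT16 (0.131) or ZT20 (0.0836). At ZT0 Zbtb16 was lowest. There 5 of 8 white adipocyte markers and 6 of 8 Schwann cell markers were called negative in the authors' deposited tables. Of all genes 28.1% were called at ZT0 in either direction. In the authors' deposited tables at ZT20, 6 of 8 adipocyte and 8 of 8 Schwann cell markers were called positive. Zbtb16 was 0.04 at that time, and 32.2% of all genes were called. The part of these cell types in the Zbtb16 values was not tested. Zbtb16 ran from -0.19 to 0.27 in the authors' deposited PER2 tables, and its mean was -0.05 (adjusted p = 0.803).

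Cebpd, the gene of the transcription factor C/EBPδ, was the least abundant member per length. Its RORA values in the authors' deposited tables were log2FC of -0.06, -0.33, -0.09, 0.01, 0.0028 and -0.63 from ZT0 to ZT20. It was called at ZT4 and ZT20, and its fold at ZT20 was 0.647 (adjusted p = 0.000245). At ZT20 only 3.41% of all genes had a value as large in size. The weighted mean was -0.08, with an interval from -0.19 to 0.03 (adjusted p = 0.332), whereas Stouffer's sum gave an adjusted p of 0.00127. Without ZT20 the mean was -0.04 (adjusted p = 0.739). The deposited errors at the 2 called times, 0.26 and 0.23, were the largest of its 6 in the authors' deposited tables, so these times carried the least weight. Exons of Spidr overlap Cebpd on the opposite strand in GENCODE M21, and whether the counting used strand is not given in the sources used here.

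Mt1 and Mt2 encode metallothioneins, small proteins that bind zinc and copper and are induced by metals as well as by glucocorticoids. Mt1 had a log2FC of 0.08, 0.16, 0.55, 0.06, 0.03 and 0.18 from ZT0 to ZT20 in the authors' deposited RORA tables. All 6 values were positive, and ZT8 was the only call (fold 1.46, adjusted p = 9.62e-05). The weighted mean rose by 0.12 ± 0.044 (adjusted p = 0.017). That call was lost without ZT8 (0.112), without ZT20 (0.0607) and with limma on the 6 values (0.0743). At ZT8 all 4 red blood cell genes (median 0.387) and 7 of 8 endothelial genes (median 0.284) were called positive in the authors' deposited tables. Of all genes 27.8% were called at ZT8 in either direction. At ZT20, where Mt1 was not called, 4 of 4 red blood cell and 6 of 8 endothelial genes were called positive. Of all genes 32.2% were called at that time. The part of these cell types in the Mt1 values was not tested.

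Mt2 had a log2FC of -0.0047, 0.15, -0.14, -0.01, 0.02 and -0.06 over the same times in the authors' deposited RORA tables, with no call. At ZT8, where Mt1 was highest, Mt2 was lowest. Its RORA weighted mean was -0.01, with an interval from -0.10 to 0.09 (adjusted p = 0.965), and the difference between the genes was not tested. The lowest PER2 values of Mt1 in the authors' deposited tables were -0.63 (ZT12) and -0.50 (ZT4), and its other 4 ranged from -0.20 to 0.13. Mt2 in the authors' deposited PER2 tables went from 0.25 at ZT0 to its lowest value of -0.56 at ZT16. Neither mean passed: Mt1 had -0.19 (adjusted p = 0.207) and Mt2 -0.14 (adjusted p = 0.477). At ZT4 and ZT12 the PER2 red blood cell medians were -1.352 and -1.009, and with the length and GC trend removed Mt1 was -0.22 and -0.42. The same step moved Mt2 from 0.15 to 0.58 at ZT4 and turned it from -0.21 to 0.10 at ZT12, with no call. The coding sequences of the pair are closely alike, and Gm45774, which is listed in neither set, overlaps Mt2 on the opposite strand. How the authors' counting assigned reads of these genes is not given in the sources used here, so both values are uncertain. Whether reads were split between the genes was not tested.

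**Figure D3:**
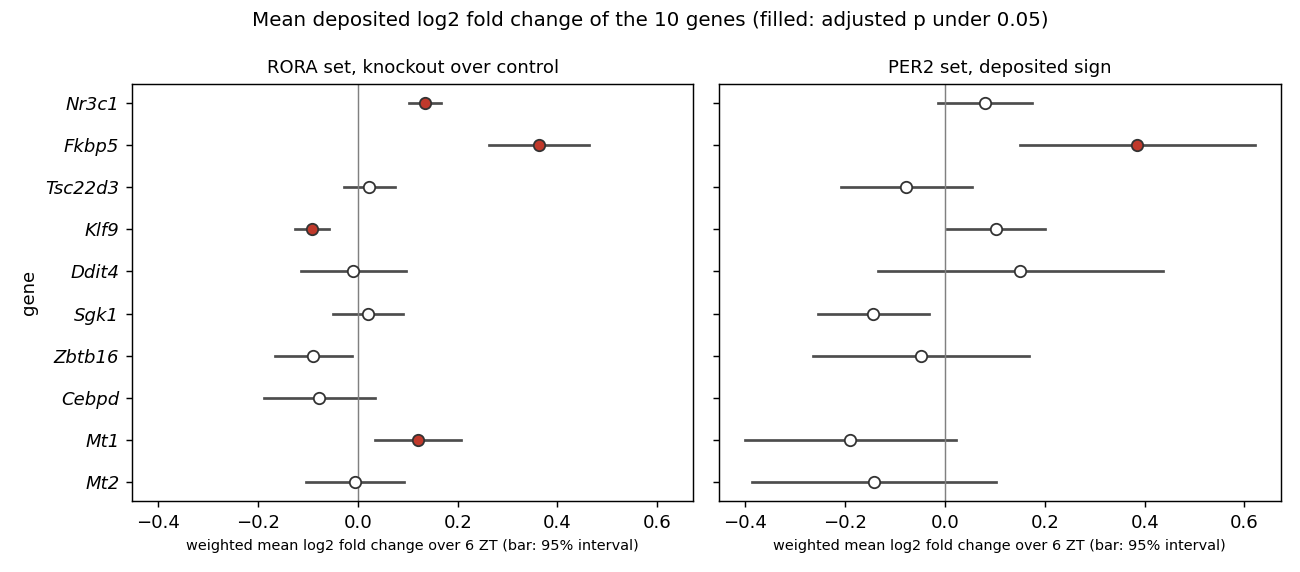
Inverse-variance weighted mean log2 fold change over 6 ZT (horizontal axis) of each gene in the RORA set (left) and the PER2 set (right, sign as deposited), with 95% intervals as bars and filled points for an adjusted p under 0.05, by Stouffer's sum in PER2. Fkbp5 lies farthest from 0 in both panels (0.36 and 0.39), and the PER2 intervals are wider than the RORA intervals for every gene plotted in both. The RORA bars use the deposited errors and the PER2 bars a derived error, so their widths are not like measures of precision.

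The machinery around the receptor was read from a list of 16 genes, 15 of them measured. The RORA background depends on abundance: 38.2% of all genes were called on the mean. That share was 55.1% of 9306 genes once those counted under 50 on average were dropped. In the RORA knockout 1 of the list rose and 8 fell on the mean over ZT (60.0%). Of all genes, 18.9% rose and 19.3% fell. The median was -0.04 beside 0.003 for all genes. The 4 with the smallest adjusted p all fell: Ncor1, a corepressor of nuclear receptors, by 0.13; H6pd, which supplies NADPH to the enzyme that reactivates glucocorticoids, by 0.18; Ncoa1, a coactivator, by 0.12; and Stip1, a co-chaperone that links HSP70 to HSP90, by 0.08. Ncor1 and H6pd were negative and called at all 6 ZT in the authors' deposited tables. Nr3c2, the mineralocorticoid receptor gene, was the 1 that rose, by 0.09; it lies outside the rule for naming genes and was chosen after its value was seen. In PER2 3 had a positive and 1 a negative called mean, where 10.9% and 10.6% of all genes did. These were H6pd (0.18), Hsp90aa1 (0.17), the gene of an HSP90 isoform, and Stip1 (0.10), with Hsd11b1, the reactivating enzyme itself, at -0.17. At single times H6pd and Hsd11b1 were called only at ZT4 in the authors' deposited PER2 tables (0.42 and -0.42).

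Other known glucocorticoid targets moved in both directions in the RORA knockout. Of 25 genes, 5 rose, 8 fell and 12 were not called on the mean, with a median of -0.026 beside 0.003 for all genes. The share called was 52.0%, beside 38.2% of all genes and 55.1% with the low-count genes dropped. Enrichment at matched abundance was not tested. Fbxo32, the muscle ubiquitin ligase atrogin-1, fell by 0.55 (adjusted p = 7.25e-104), and Mstn, the growth inhibitor myostatin, fell by 0.53 (adjusted p = 6.22e-101). Glul, which makes glutamine, rose by 0.38, and Foxo3, a transcription factor of muscle atrophy, rose by 0.18. Fbxo32 was lowest at ZT16, at -1.08 in the authors' deposited tables, the same time at which Fkbp5 was highest. For 10 of the 25 the effect differed between times, beside 11.0% of all genes. Pdk4, a kinase that limits glucose oxidation, lies outside the rule and was chosen after its values were seen: it was 0.03, 1.22, 1.58, 0.86, -0.11 and 0.12 from ZT0 to ZT20 in the authors' deposited tables, with calls from ZT4 to ZT12.

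In the PER2 set 4 of the same 25 targets had a positive and 2 a negative called mean (24.0%, near the 21.6% of all genes), with a median of 0.055 beside -0.016 for all genes. Mstn had 0.50 (adjusted p = 1.52e-16) and was positive at 6 of 6 times. Hif3a, a hypoxia-inducible factor subunit, had 0.67, Cdkn1a, the cell cycle inhibitor p21, had 0.26, and Angptl4, an inhibitor of lipoprotein lipase, had -0.82. Mstn had a negative mean in RORA and a positive deposited mean in PER2, whereas Fkbp5 was positive in both. Since the genotype order of the PER2 tables is not stated, neither pattern can be read as the same or opposite response to the knockouts.

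**Figure D4:**
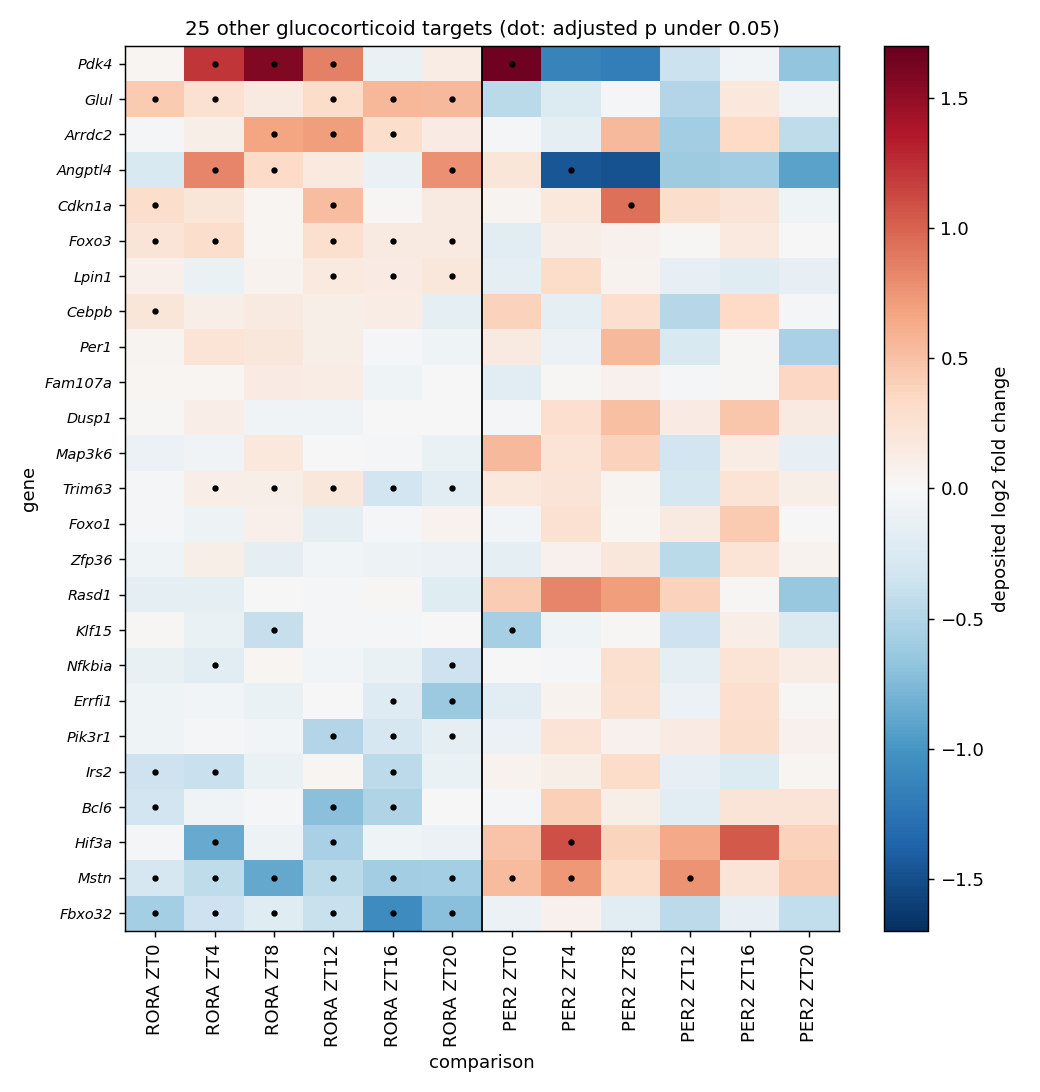
Deposited log2 fold change (colour) of 25 other glucocorticoid targets (rows, ordered by the plain mean over the RORA times) in the 12 comparisons (columns), with a dot for an adjusted p under 0.05. Fbxo32 and Mstn are negative and dotted at all 6 RORA times, and Glul is positive at all 6.

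Relatives of the members and metal-handling genes gave the last 2 lists. Of 10 measured relatives, 1 rose and 5 fell in the RORA knockout (60.0%). Of all genes 38.2% were called, and 55.1% with the low-count genes dropped, and enrichment at matched abundance was not tested. Tsc22d1, a relative of Tsc22d3, fell by 0.35 and was called at all 6 ZT in the authors' deposited tables, and Ddit4l, the relative of Ddit4, fell by 0.35 and was also called at all 6. Tsc22d4 rose by 0.21 and Tsc22d2 fell by 0.10. Tsc22d3 and Ddit4 themselves were not called on the mean. In PER2 3 of the 10 relatives had a positive and 1 a negative called mean (40.0%, beside 21.6% of all genes called). The positive means were those of Tsc22d1 (0.34), Klf13 (0.19) and Tsc22d2 (0.14), and the negative was that of Cebpa (-0.24). At single times Tsc22d2 and Cebpa were called only at ZT4 in the authors' deposited PER2 tables (0.24 and -0.51). Of 5 measured metal-handling genes in RORA, 0 rose and 2 fell on the mean (40%, beside 38.2% of all genes called): Slc39a10, a zinc importer, by 0.09, and Mtf1, the metal-sensing transcription factor, by 0.05. Mt3, a metallothionein of this list named after its values were seen, had a mean of 0.18 that did not pass (adjusted p = 0.121). It was nevertheless called positive in the authors' deposited tables at ZT4 (1.36), ZT8 (0.68) and ZT20 (0.85), at a low mean normalized count of 5.16. In PER2 1 of 4 passed (25.0%, beside 21.6% of all genes), Slc39a10, at 0.11 (adjusted p = 0.0484). Slc39a10 was 0.55 at ZT4 in the authors' deposited tables, its only call there, and lay between -0.04 and 0.18 at the other times. PER2 fold changes correlated with transcript length at ZT4 and ZT12 (Spearman's rho 0.52 and 0.44 across genes). The part of this trend in the PER2 means of the 4 lists was not tested.

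For each member measured in both sets, the genes with the most alike profile were found by the cosine of the 12 deposited log2FC among 8512 genes. Fkbp5 was most like Hs6st1 (0.937) and Mustn1 (0.902), and Nr3c1 was most like Arhgap21 (0.947) and Mbnl2 (0.943). Klf9 was most like Bmi1 (0.937) and Armc8 (0.933), Sgk1 like Rabl6 (0.925) and Wdr45 (0.882), and Ddit4 like Klf2 (0.925) and Cnpy3 (0.897). Tsc22d3 was nearest to Hars (0.872) and Egr1 (0.843), and Zbtb16 to Dse (0.829) and Rnase4 (0.818). Mt1 was nearest to Polr2f (0.948) and Mrpl41 (0.937), and Mt2 to Arfgap3 (0.899) and Cish (0.867). No member was among the 2 nearest genes of another member. Mt1 and Mt2 could not be, since their mean normalized counts of 40.1 and 19.8 lay under the minimum of 50. Whether these 2 genes are alike was therefore not examined. These likenesses are descriptions over 12 comparisons, each with its own mice.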

How the data were processed

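RNA was measured in muscle of PER2 MKO, RORA MKO and their CTRL mice at 6 ZT. Per the labels' protocols, stranded poly-A libraries were made from total RNA. The submitters' processing notes list STAR, Trimmomatic, DESeq2, MultiQC, bcl2fastq 2.20.0.422 and R 4.1, and as builds mm9 and GRCm39, without roles. Which counter, strand setting and annotation were used is not given in the sources used here. Per the file headers, each deposited RORA table has per gene the log2 fold change and its error, the raw and adjusted p-value, and the level as a signal, the mean normalized count. Per the labels' descriptions, genes had 10 reads in 3 samples. The median ratio of the deposited log2 fold change over its error to the z value of its p was 0.814 in the RORA tables (sizes of z above 1), as happens with shrunken fold changes, so sizes may be understated and differences between ZT distorted. The deposited PER2 tables have, per the file headers, the mean log2 CPM, the log2 fold change, the score of a likelihood ratio test and its raw and adjusted p-value.

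No table holds counts per library, so the deposited adjusted p was used at each ZT. For the mean, RORA log2 fold changes were averaged with inverse-variance weights, and PER2 z values, signed from the deposited p, by Stouffer's sum. Printed PER2 means use a derived error: the absolute log2 fold change divided by the square root of the deposited score. Cochran's Q (5 degrees of freedom) tested change with ZT. Tests are two-sided for means and were adjusted over all genes by Benjamini-Hochberg. They were also run on simulated data with the deposited RORA errors. In the simulation effect, error and p-value match exactly, unlike in the deposited RORA values, and no PER2 values were simulated. That run therefore cannot show how the tests behave on these data. The combination treats the 6 ZT as separate, each with its own mice. The names of the deposited RORA comparisons contain the words replicate and genotype_type. Whether the authors' fit held a replicate term is not given in the sources used here. Whether such a term links the 6 ZT was not tested. Precision rests on the authors' errors and tests, which come from the mice used. The deposited RORA errors do not match the deposited p-values. The p of the RORA mean therefore does not directly measure the spread between mice. GENCODE M21 gave names, exons, transcript length and GC content. Motifs were searched in RefSeq windows of 250 bases. Sequences of Nr3c1, Zbtb16 and Cebpd were not used here.

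The members and gene lists were chosen with earlier results of these data known. All 10 members are named. From each other list and set, up to 4 called genes with the smallest adjusted p of the mean are named, and exceptions are marked. The 2 most alike genes per member had a mean normalized count of at least 50 and a mean log2 CPM of at least 0, and no predicted name. Alternatives left out single ZT, changed the combination, the threshold or the filter, or removed length and GC trends. Python 3.11.15, NumPy 2.4.6, pandas 2.3.3, SciPy 1.17.1, matplotlib 3.10.9, R 4.3.3 and limma 3.58.1 were used.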

Additional observations from a re-analysis of the deposited data

Results flagged for a closer look

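The RORA effect on Fkbp5 differed between times of day by a test of the difference itself (Cochran's Q over the 6 ZT, adjusted p = 0.00178). Its log2 fold change was 0.83 at ZT16 and 0.12 at ZT8 in the authors' deposited tables, and it was positive at 6 of 6 times. Without ZT16 the test gave 0.0844.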

How the results depend on the processing

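Among values for single genes, 252 kept their direction and their side of the threshold under an alternative. A further 14 became called, 7 lost their call and 3 changed sign. The 252 include values that were called under neither setting. The 4 members called on the RORA mean became 2 (Fkbp5 and Nr3c1) with limma on the 6 values per gene. The 1 member whose RORA effect changed with ZT became 2 without ZT8, 2 without ZT12 (Fkbp5 and Zbtb16 in each) and 3 with Cochran's Q on z values (Fkbp5, Klf9 and Zbtb16). The 1 member called on the PER2 mean became 4 without ZT0 and 2 without ZT8. At a threshold of 0.01 the 1 PER2 call at a single time became 0. The sign of the RORA mean turned for Mt2 without ZT8 (0.0078) and without ZT20 (0.0057), and for Ddit4 without ZT20 (0.0092), none of which was called. The causes were not tested. Stouffer's sum called 6 members in RORA, against 52.8% of all genes. The alternative for Klf9 at ZT4 in PER2 was chosen after seeing the data; with the length and GC trend removed, calls over all PER2 genes at ZT4 went from 1586 to 657.

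No paired analysis was possible because the tables hold comparisons and no values per mouse, and the groups compared share no running number. For the same reason no single mouse could be left out, and library depth is unknown. The derived PER2 errors of Fkbp5 at single times, 0.28 to 0.30, exceeded its log2FC at 2 of 6 times.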
